A study of Mus musculus with 2 samples.

Results

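The 10 genes described here are the transcription factor gene Nfe2l2, which encodes NRF2, the NRF2 target genes Nqo1, Gclc, Gclm, Gsr, Txnrd1, Srxn1 and Slc7a11, and the metallothionein genes Mt1 and Mt2. They were picked by gene symbol for their part in the answer of a tissue to oxidants, and all 10 were found among the 24346 symbols of both libraries. The libraries were made from dorsal skin wounds of C57BL/6J mice, 1 library of WT pups and 1 of PU.1-/- littermates (labelled PU.1_KO), wounded at 1 day of age and harvested 24 h later. PU.1-/- mice lack the transcription factor PU.1, encoded by Spi1, in all cells, and are described in the study as lacking macrophages, neutrophils, mast cells and T cells. The labels name no other allele or agent, the number of pups in each library is not stated, and the wounds are called incisional in the methods and excisional in the deposited design text.

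NRF2 is held in the cytoplasm by KEAP1, which feeds it to the CUL3 ubiquitin ligase, so that much of its control lies in the stability of the protein and not in the level of its mRNA. When oxidants modify KEAP1, NRF2 enters the nucleus, pairs with a small MAF protein and binds antioxidant response elements near genes of glutathione, thioredoxin and quinone metabolism. Metallothioneins are small cysteine-rich proteins that bind zinc and copper, and their genes are switched on by the zinc sensor MTF1 through metal response elements, as well as by glucocorticoids and inflammatory cytokines. In skin wounds these genes are known in keratinocytes at the wound edge, while Slc7a11 is also known in activated myeloid cells.

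Neither genotype had a replicate, and the ratios therefore carry no p-value and no error for variation from pup to pup. Levels are in FPKM, which scales the fragments of a gene by the length of its exons and by a factor for the size of the library. The methods do not state how that factor was set. The ratio of each gene is its FPKM in PU.1-/- over that in the WT wound, after values below 0.1 FPKM were raised to 0.1. Low values moved in steps of whole reads, and from these steps and transcript lengths the effective depth was estimated at 1.38e+07 reads in the WT library and 1.58e+07 reads in the PU.1-/- library. Intervals given with levels and ratios are exact 95% intervals from the estimated reads (Poisson for levels, Clopper-Pearson for ratios) and cover counting error only, not differences between animals. Spi1 was at 35.4 FPKM in WT, against 1.45 FPKM in PU.1-/-, 24.3 times higher in WT, which is the direction of the labels. Xist was listed at 0 in WT and at 9.48 FPKM in PU.1-/-, and the Y-linked gene Ddx3y at 21.0 and 0 FPKM, so that sex and genotype cannot be told apart here.

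The cell types of the wound differed too. The 9 macrophage markers summed to 720 FPKM in WT, against 5.74 FPKM in PU.1-/-, where 5 of them, Adgre1, Tyrobp, C1qa, C1qb and C1qc, were listed at 0. The 7 neutrophil markers found summed to 12517 and 3669 FPKM, with Csf3r, Retnlg and Ngp at 0 in PU.1-/-, while S100a8, at 6600 and 2129 FPKM, and S100a9, at 5311 and 1516 FPKM, which keratinocytes of wounds also make, held most of the rest. The 5 mast cell markers summed to 686 and 7.30 FPKM, with Mcpt4 at 0. Skin was present in both, with the 9 keratinocyte markers at 17324 and 19559 FPKM and the 8 fibroblast markers at 2831 and 3360 FPKM. Sums were 6791 and 11794 FPKM for 7 skeletal muscle markers, 114 and 138 FPKM for 4 of endothelium, 3638 and 3171 FPKM for 4 of adipocytes, and 1273 and 1533 FPKM for 4 of red blood cells. The adipocyte sum is mostly Fabp4, at 3408 and 3037 FPKM, and the median log2 ratio of those markers was −0.76, with Plin1 at 47.2 and 21.1 FPKM and Cidec at 71.1 and 36.6 FPKM. In such bulk samples fewer cells of a type and less RNA per cell cannot be told apart, and the part of these differences in the values below was not tested.

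Of the 10 genes, Slc7a11 alone differed by at least 2-fold, being lower in the PU.1-/- wound. The other 9 lay within 1.5-fold of the WT level. Among all 12958 genes with a mean of at least 1 FPKM, 3.83% were at least 2-fold lower and 1.42% at least 2-fold higher. At 1.5-fold the shares were 7.39% lower and 5.03% higher, and the same count of the 10 genes, 1 lower and 0 higher, held. With 10 genes, a count of 1 is no result about the group as a whole. The median log2 ratio of the 10 was −0.01, that of all 12958 genes −0.00, and 5 of the 10 genes lay below 0 and 5 above. All 10 passed the filter on low values.

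**Figure D1:**
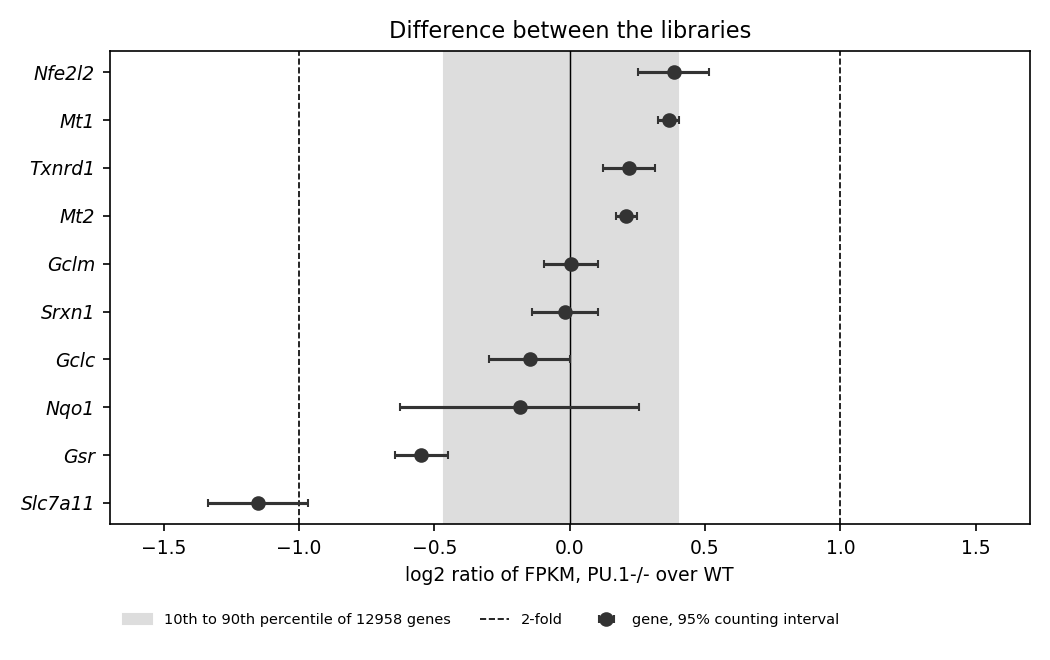
The log2 ratio of each gene (PU.1-/- over WT, 1 library each) is plotted with its 95% counting interval, beside the band that holds the middle 80% of 12958 genes (grey) and the 2-fold lines (dashed). Slc7a11, at −1.15, lies beyond the 2-fold line and Gsr, at −0.55, just outside the band, while the other 8 genes lie inside it.

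Nfe2l2 itself, on chromosome 2 of mm10 from 75675513 to 75704663, was at 46.2 FPKM in WT, against 60.2 FPKM in PU.1-/-. Its ratio of 1.30 (interval 1.19 to 1.43) was the highest of the 10, with an interval that overlaps that of Mt1, and came from about 794 and 1190 reads counted on the shorter of its 2 transcripts. Of all genes tested, 10.6% were as high or higher in ratio. The list of sensors and partners, which includes Nfe2l2 itself, held 8 genes, of which 0 differed by 1.5-fold, with a median log2 ratio of 0.22. Keap1, the sensor, was at 22.4 and 24.2 FPKM, and Cul3, the ligase scaffold, at 72.4 and 70.8 FPKM. Bach1, a repressor that competes for the same DNA elements, was at 32.7 and 40.1 FPKM, and Nfe2l1, a related factor that also controls proteasome genes, at 82.2 and 106 FPKM. The ratio of Nfe2l1, 1.29 (1.24 to 1.34), was close to that of Nfe2l2.

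Glutathione is made from glutamate, cysteine and glycine, and the supply of cysteine begins with SLC7A11, the subunit of system xc- that brings cystine into the cell in exchange for glutamate. Slc7a11, on chromosome 3 from 50364936 to 50499087, was at 5.75 FPKM in WT, against 2.59 FPKM in PU.1-/-. These levels stand for about 715 and 370 reads, and their counting intervals, 5.33 to 6.19 FPKM and 2.33 to 2.87 FPKM, did not overlap. The WT level was 2.22 times the PU.1-/- level (interval 1.96 to 2.52), so that counting error alone leaves room for a fold just under 2. With 1 FPKM added to both values the log2 ratio was −0.91 and no longer reached 2-fold. In all, 449 of the 12958 genes tested (3.47%) had a ratio as low or lower. Its partner in the transporter, the heavy chain Slc3a2, was at 72.3 and 62.5 FPKM, a ratio of 0.864. The level of Slc7a11 relative to Slc3a2 was 0.0796 in the WT and 0.0415 in the PU.1-/- wound, a change of 0.521 (exact conditional interval 0.450 to 0.603).

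Slc7a11 is controlled by NRF2 and also by ATF4, the factor of the amino acid response, which binds amino acid response elements. Its promoter is shown because it is the gene with the largest difference and because both kinds of motif can be looked for in it. The RefSeq window of 250 bases before to 50 after its start (GRCm38.p6, the assembly of mm10, chr3:50443564-50443863, minus strand) holds the amino acid response core TGATGCAA at 2 places, 1 on each strand, in capitals here:

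Slc7a11: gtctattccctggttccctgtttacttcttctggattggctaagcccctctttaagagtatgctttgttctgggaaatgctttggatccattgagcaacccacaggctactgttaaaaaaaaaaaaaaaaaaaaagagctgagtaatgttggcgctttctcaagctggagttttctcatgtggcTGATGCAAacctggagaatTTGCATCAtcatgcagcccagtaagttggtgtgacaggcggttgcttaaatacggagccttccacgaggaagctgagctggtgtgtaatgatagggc

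The matches begin 66 and 47 bases before the start. This core was searched for after the sequence had been read, and 0.895% of all 32851 promoters of this length hold it on either strand. The second match shares 6 bases with a match to the loose antioxidant response core TGANNNNGC, which occurs at 3 places in the window and in 41.3% of all promoters. The stricter core TGACNNNGC, held by 12.4% of promoters, was not among its letters. The start used lies 55474 bases inside the RefSeq span of the gene.

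Other genes of the amino acid response did not show a difference of this size. Of the 11 genes on that list Slc7a11 was the 1 that differed by at least 1.5-fold, and the median was −0.21. In log2 ratio 9 of them lay below 0 and 2 above. The 2 above were Atf3, at 5.18 and 6.82 FPKM, and Ddit3, at 14.5 and 15.7 FPKM. Atf4 was at 270 and 262 FPKM. Asns, asparagine synthetase, was at 39.6 and 33.7 FPKM, and Trib3, a pseudokinase induced by ATF4, at 13.5 and 12.2 FPKM. The serine synthesis genes Psat1, at 90.1 and 66.0 FPKM, and Phgdh, at 37.9 and 27.7 FPKM, were the next lowest in ratio, with log2 ratios near each other at −0.45 and −0.45.

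Gclc and Gclm encode the catalytic and the modifier subunit of glutamate-cysteine ligase, the rate-limiting enzyme of glutathione synthesis. Gclc, on chromosome 9 from 77754535 to 77794489, was at 16.2 FPKM in WT, against 14.6 FPKM in PU.1-/-, with a ratio of 0.903 (0.814 to 1.002). Gclm, on chromosome 3 from 122245487 to 122267215, was at 20.6 and 20.7 FPKM, a ratio of 1.003 (0.936 to 1.07). The level of Gclc relative to Gclm was 0.785 and 0.706, and its change of 0.900 had a counting interval that held 1 (0.795 to 1.02). Both ratio intervals held 1 as well. Of the 8 genes on the list named for glutathione synthesis, not all of which act in synthesis, Slc7a11 was the 1 that passed 1.5-fold. The list median was −0.14. Ggct, which degrades gamma-glutamyl peptides, was at 44.1 and 39.7 FPKM. Exons of Gclm overlap those of the gene models Gm6061 on the same strand and Gm17494 on the opposite strand, neither of which is among the deposited symbols.

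Gsr encodes glutathione reductase, which uses NADPH to return oxidized glutathione to its reduced form. On chromosome 8 from 33653238 to 33698162, it was at 55.7 FPKM in WT, against 38.1 FPKM in PU.1-/-, from about 1898 and 1491 reads. The WT level was 1.46 times the other (interval 1.37 to 1.57), just short of 1.5-fold, and 8.03% of genes tested had a ratio as low or lower. Of the 11 genes of glutathione use and recycling 0 differed by 1.5-fold, with a median of −0.09. The abundant peroxidases Gpx1, at 422 and 430 FPKM, and Gpx4, at 273 and 257 FPKM, lay close to WT. Gpx2, an epithelial peroxidase of low level here, was at 2.28 and 1.54 FPKM.

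A list of genes around NADPH supply was described beside it, some of whose enzymes, like that of Taldo1, do not make NADPH themselves. All 6 on that list had log2 ratios below 0, from −0.60 to −0.09, with a median of −0.37, and 2 of the 6 passed 1.5-fold, where 7.39% of all genes tested were lower by as much. Taldo1, transaldolase of the pentose phosphate pathway, was at 131 and 86.2 FPKM, where the WT level was 1.52 times the other (interval 1.42 to 1.63). G6pdx, glucose-6-phosphate dehydrogenase, the entry enzyme of that pathway, was at 42.1 and 28.0 FPKM, 1.51 times higher in WT (1.39 to 1.63). G6pdx lies on the X chromosome, and both intervals reach below 1.5. Scaled to the same FPKM sum in both libraries, neither Taldo1 nor G6pdx reached 1.5-fold, and the list median was −0.33. That median was −0.56 and −0.71 when scaled to the keratinocyte and the fibroblast markers. Idh1, cytosolic isocitrate dehydrogenase, was at 80.9 and 67.0 FPKM.

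Genes of the thioredoxin system lay within 1.5-fold of WT. Txnrd1, thioredoxin reductase of the cytosol, on chromosome 10 from 82833951 to 82897724, was at 53.9 FPKM in WT, against 62.8 FPKM in PU.1-/-, with a ratio of 1.16 (1.09 to 1.24). The reads of Txnrd1 were counted on the shortest of its 4 transcripts, which makes the interval wide. Gsr and Txnrd1 were at similar levels in the WT wound, with intervals of 53.2 to 58.2 and 51.3 to 56.7 FPKM that overlap. In the PU.1-/- wound they were apart, at 36.2 to 40.0 and 60.1 to 65.5 FPKM. The level of Gsr relative to Txnrd1 went from 1.03 to 0.606, a change of 0.588 (0.534 to 0.646), which does not depend on the scaling of the libraries. Of the 13 genes of the thioredoxin and peroxiredoxin list 0 passed 1.5-fold, and their median was −0.06. The most abundant were Prdx5, at 484 and 384 FPKM, and Prdx1, at 440 and 369 FPKM, both peroxidases that use thioredoxin.

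Srxn1 encodes sulfiredoxin, which repairs overoxidized peroxiredoxins. On chromosome 2 from 152105524 to 152111376, it was at 28.8 FPKM in WT, against 28.4 FPKM in PU.1-/-, from about 1035 and 1175 reads. Its ratio of 0.988 (0.908 to 1.08) was among the closest to 1, since 94.5% of genes tested differed by more or as much. Its promoter is shown as a contrast to that of Slc7a11, because it holds the most matches to the loose antioxidant response core among the windows of these genes. In the window at chr2:152105274-152105573, plus strand, the 4 matches on both strands are in capitals:

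Srxn1: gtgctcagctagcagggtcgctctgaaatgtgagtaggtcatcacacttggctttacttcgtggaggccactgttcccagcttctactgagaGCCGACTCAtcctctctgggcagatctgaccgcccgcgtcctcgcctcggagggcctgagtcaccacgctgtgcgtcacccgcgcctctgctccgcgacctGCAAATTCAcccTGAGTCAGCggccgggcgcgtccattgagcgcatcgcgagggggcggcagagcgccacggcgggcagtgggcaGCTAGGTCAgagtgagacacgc

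The match nearest the start on the upstream side begins 45 bases before it and is on the plus strand, and the 1 that also holds the stricter core begins 28 bases after it. Windows were found for 8 of the 10 genes, Gclc and Gsr having no entry. The stricter core was also found in the windows of Nfe2l2, Gclm and Mt2 and in that of the second of 3 starts of Txnrd1. In Gclm it shares 3 bases with a metal response core. The window of Nqo1 and that of the first Txnrd1 start held none of the motifs searched.

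**Figure D2:**
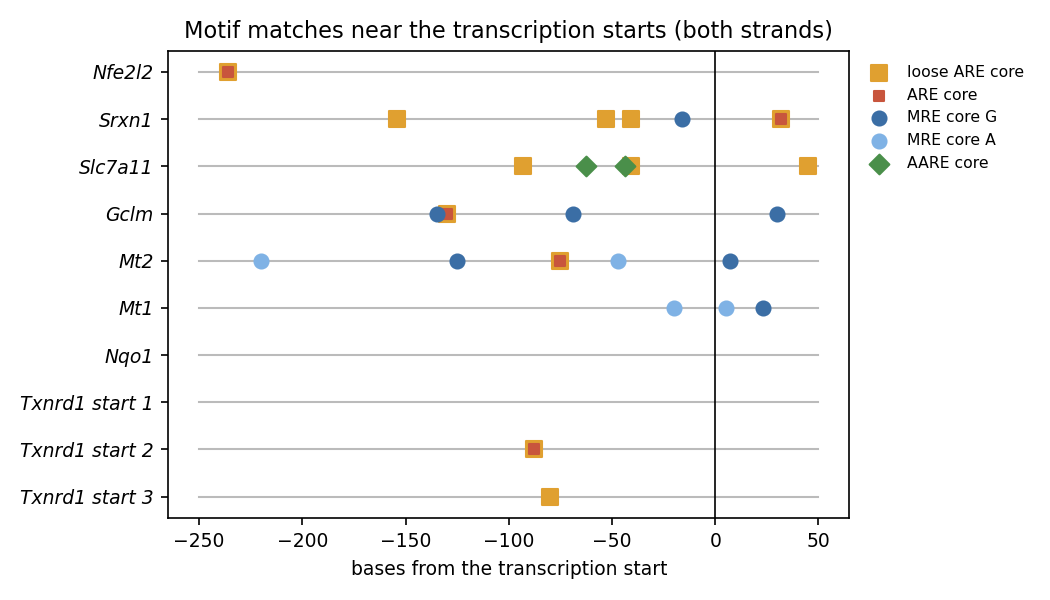
Matches to the antioxidant response core (ARE), its looser form, both forms of the metal response core (MRE) and the amino acid response core (AARE) are marked by their distance in bases from the transcription start, on both strands, in 10 windows of 8 genes. Srxn1 has 4 loose ARE matches, Slc7a11 has 2 AARE matches, Mt2 has 4 MRE matches and Mt1 has 3.

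Nqo1, the quinone reductase often used as a readout of NRF2, was low in these wounds. On chromosome 8 from 107388225 to 107403205, it was at 4.73 FPKM in WT, against 4.17 FPKM in PU.1-/-, from about 88 and 89 reads. Its ratio of 0.881 had the widest interval of the 10, from 0.648 to 1.20, so that no difference was detectable at this depth. Of the 10 genes of quinone, carbonyl and aldehyde enzymes 8 passed the filter and 0 of these differed by 1.5-fold, with a median of −0.17. Akr1b8, an aldo-keto reductase, was at 81.5 and 60.0 FPKM, and Ugdh, which makes the substrate of glucuronidation and hyaluronan, at 81.5 and 94.3 FPKM. Of the 15 glutathione S-transferases and related enzymes 11 passed the filter, and Gstt1 was the 1 that passed 1.5-fold, at 1.49 and 0.533 FPKM from about 17 and 7 reads. The abundant members Mgst1, at 243 and 201 FPKM, and Gsto1, at 140 and 176 FPKM, lay on opposite sides of 1 in ratio.

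The list of heme, iron and export genes, which also holds Sqstm1 and Osgin1, had the lowest median of the 12 lists. Hmox1, heme oxygenase, was at 251 and 78.4 FPKM, 3.20 times higher in the WT wound (3.03 to 3.38). Ftl1, the ferritin light chain, was at 1490 and 834 FPKM, 1.79 times higher in WT (1.74 to 1.83), and Fth1, the heavy chain, at 2952 and 2174 FPKM. Hmox1 and Ftl1 were the 2 genes of 9 on this list that passed 1.5-fold, beside 7.39% of all genes tested, and the list median was −0.43. Sqstm1, an autophagy receptor that also binds KEAP1, was at 144 and 216 FPKM, and its ratio of 1.499 (1.44 to 1.56), just under the threshold, was the 1 of the 9 above 1. Of the 4 genes that remove superoxide and hydrogen peroxide 0 passed, with Sod1 at 302 and 311 FPKM and Sod2 at 81.7 and 68.5 FPKM. Over all 12 lists, which hold 117 genes, 110 passed the filter on low values. Of these 110, 7 (6.36%) were at least 1.5-fold lower and 3 (2.73%) at least 1.5-fold higher, and the median log2 ratio was −0.09. As deposited both shares lie below those of all genes tested, 7.39% and 5.03%, so that these counts are no result about the lists. The order of the lower shares rests on the scaling. It was 18.2% beside 11.9% of all genes with keratinocyte markers at 0, and 30.9% beside 20.2% with fibroblast markers at 0.

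**Figure D3:**
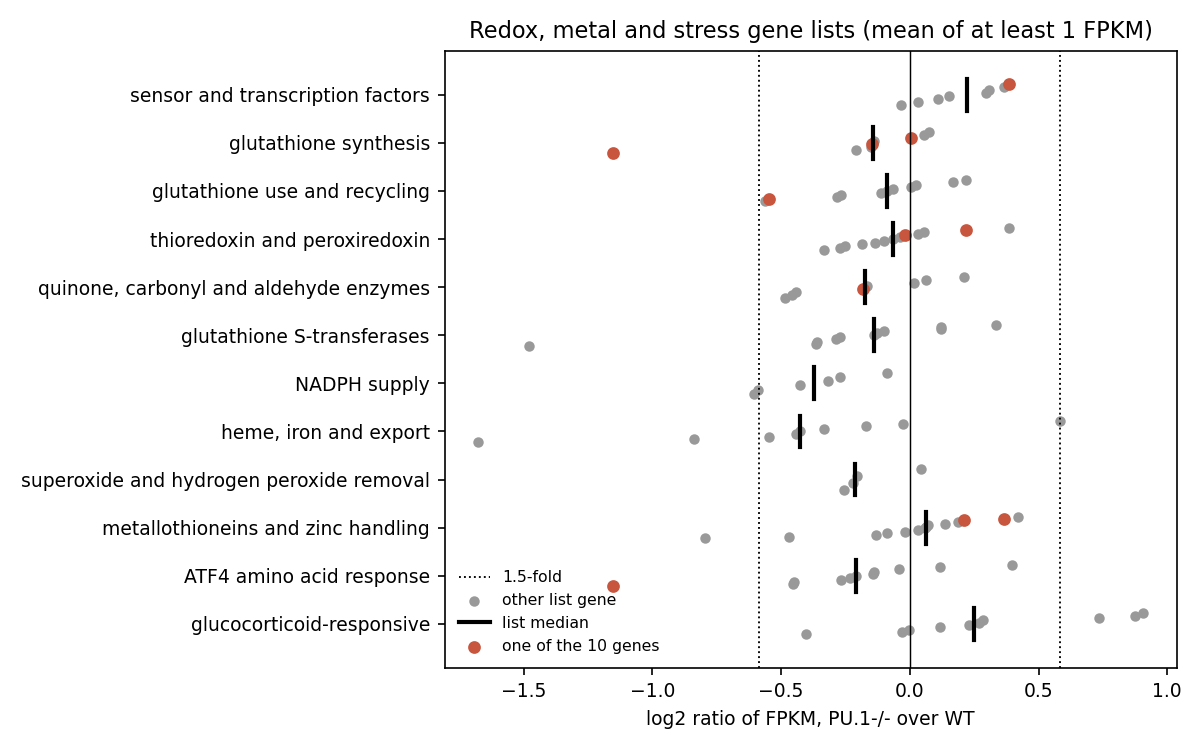
The log2 ratio (PU.1-/- over WT) of each gene with a mean of at least 1 FPKM is plotted for 12 lists, with the 10 genes described here in red, other genes in grey, list medians as black bars and the 1.5-fold lines dotted. Hmox1, Gstt1 and Slc7a11, the last of which is on 2 lists, lie furthest to the left, and the medians run from −0.43 for heme, iron and export genes to 0.25 for glucocorticoid-responsive genes.

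The metallothioneins were by far the most abundant of the 10 genes. Mt2, on chromosome 8 from 94172618 to 94173567, was at 2312 FPKM in WT, against 2673 FPKM in PU.1-/-, with a ratio of 1.16 (1.13 to 1.19). Mt1, beside it on chromosome 8 from 94178883 to 94180327, was at 1862 and 2401 FPKM, a ratio of 1.29 (1.26 to 1.32). Both were higher in the PU.1-/- wound by more than counting error, and Mt2 turned lower when the libraries were scaled to the fibroblast markers, at −0.13 on the log2 scale. Mt2 ranked 50 among all genes by FPKM in WT and 32 in the PU.1-/- library, and Mt1 ranked 74 and 41. The pair accounted for 0.588% of all FPKM in WT and 0.738% in PU.1-/-. The level of Mt1 relative to Mt2 was 0.806 and 0.898, a change of 1.12 (1.07 to 1.16), so that Mt1 had the higher ratio. As deposited Mt1 lay further from WT than its neighbour. With fibroblast markers at 0 Mt2 lay further, at −0.13 against 0.03 for Mt1.

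The windows before Mt1 and Mt2 are shown because both genes are read as a pair in response to metal. The metal response core was searched for as TGCGCNC and as TGCACNC on both strands, and 25.7% of all promoters hold either form, 15.4% the first and 12.6% the second. For Mt2 (chr8:94172368-94172667, plus strand) and Mt1 (chr8:94178839-94179138, plus strand) the matches are in capitals:

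Mt2: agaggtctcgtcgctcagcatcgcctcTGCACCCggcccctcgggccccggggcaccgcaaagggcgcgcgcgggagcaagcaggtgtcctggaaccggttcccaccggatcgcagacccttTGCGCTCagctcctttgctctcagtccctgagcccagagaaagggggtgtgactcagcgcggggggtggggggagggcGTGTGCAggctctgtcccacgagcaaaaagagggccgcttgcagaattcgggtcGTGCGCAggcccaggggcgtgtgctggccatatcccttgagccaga

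Mt1: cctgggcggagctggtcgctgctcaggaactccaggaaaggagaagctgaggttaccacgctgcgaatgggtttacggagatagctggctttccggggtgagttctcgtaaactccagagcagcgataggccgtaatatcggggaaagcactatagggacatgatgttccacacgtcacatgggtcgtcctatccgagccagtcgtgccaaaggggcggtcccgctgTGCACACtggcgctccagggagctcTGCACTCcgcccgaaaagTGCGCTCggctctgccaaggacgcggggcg

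Mt2 holds 2 matches of each form, the nearest upstream of its start beginning 50 bases before it. Mt1 holds 1 match of the first and 2 of the second form. In this window the only match upstream of the start used begins 23 bases before it. This start lies 206 bases inside the RefSeq span of the gene, and sequence beyond the window was not searched. No stretch of 75 bases, the read length, is shared between the transcripts of Mt1 and those of any other gene. Of the stretches of 75 bases in Mt2, 32.3% also occur in the model Gm45774 on the opposite strand, which is not among the deposited symbols. For Slc7a11 this share was 0.929%, and for the other members it was 0.

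The rarer metallothioneins went different ways. Mt3 was at 38.9 and 52.1 FPKM, a ratio of 1.34 (1.11 to 1.62). Mt4, known from differentiating stratified epithelium, was at 24.0 and 13.8 FPKM, from about 66 and 43 reads, and was the 1 gene of its list that passed 1.5-fold, with a WT level 1.74 times the other (1.18 to 2.65). That list of metallothionein and zinc genes held 15 genes, 14 of which passed the filter, and had a median of 0.06, which was −0.12 and −0.28 when scaled to the keratinocyte and the fibroblast markers. Mtf1, the zinc sensor, was at 3.80 and 3.99 FPKM, and Slc30a1, a zinc exporter under its control, at 8.86 and 9.06 FPKM. As deposited neither differed by as much as Mt1, with log2 ratios of 0.07 and 0.03 against 0.37. Setting the fibroblast markers to 0 lowers each by 0.34, which brings Mt1 nearer to WT than either.

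Set in order by FPKM, which is per length, the 10 genes ran in the WT wound from Mt2 and Mt1 through Gsr, Txnrd1, Nfe2l2, Srxn1, Gclm and Gclc to Slc7a11 and Nqo1. The counting intervals of neighbours overlapped for Gsr and Txnrd1 and for Slc7a11 and Nqo1, and were apart for the other neighbours. In the PU.1-/- wound Gsr moved from place 3 to place 5, behind Txnrd1 and Nfe2l2, and Slc7a11 from place 9 to place 10. There the intervals overlapped for Txnrd1 and Nfe2l2 alone. Slc7a11, at 2.33 to 2.87 FPKM, lay below Nqo1, at 3.34 to 5.11 FPKM. These comparisons between genes carry the error of the transcript lengths, which the intervals do not include.

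**Figure D4:**
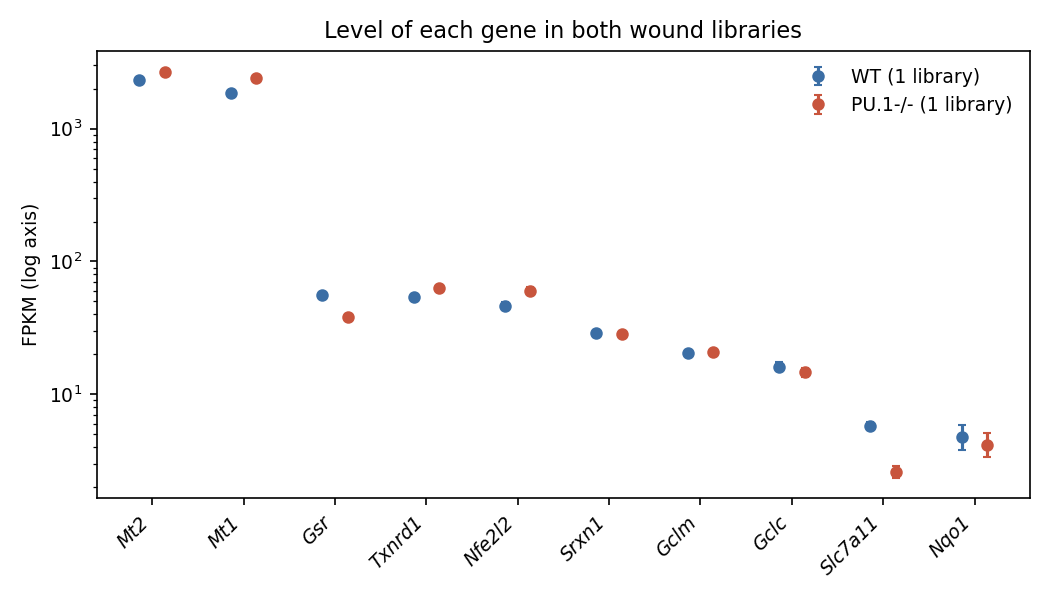
The FPKM of each gene is plotted on a log axis for the WT (blue) and the PU.1-/- library (red), 1 library each, with bars for the exact 95% Poisson interval of the estimated reads. Mt2 and Mt1 lie at 1862 FPKM or more in both libraries, the other 8 genes between 2.59 and 62.8 FPKM, and the gap between the libraries is widest for Slc7a11 and Gsr.

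The sign of small ratios rested on the scaling. Keratinocyte markers had a median log2 ratio of 0.18 and fibroblast markers 0.34, so that setting either to 0 shifts every gene down by that amount and brings the median of all genes to −0.19 and −0.34. Scaled to the keratinocyte markers, Nfe2l2 was at 0.20, Mt1 at 0.18, Txnrd1 at 0.04 and Mt2 at 0.03. Scaled to the fibroblast markers, Nfe2l2 was at 0.04, Mt1 at 0.03, Txnrd1 at −0.12 and Mt2 at −0.13. Slc7a11 was at −1.33 and −1.49 and Gsr at −0.73 and −0.89, where Gsr passed 1.5-fold. Gclm, near 0 as deposited, turned to −0.18 and −0.34, and Srxn1 changed sign with the same FPKM sum, from −0.02 to 0.03. Differences between the 10 genes are the same under every rescaling.

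**Figure D5:**
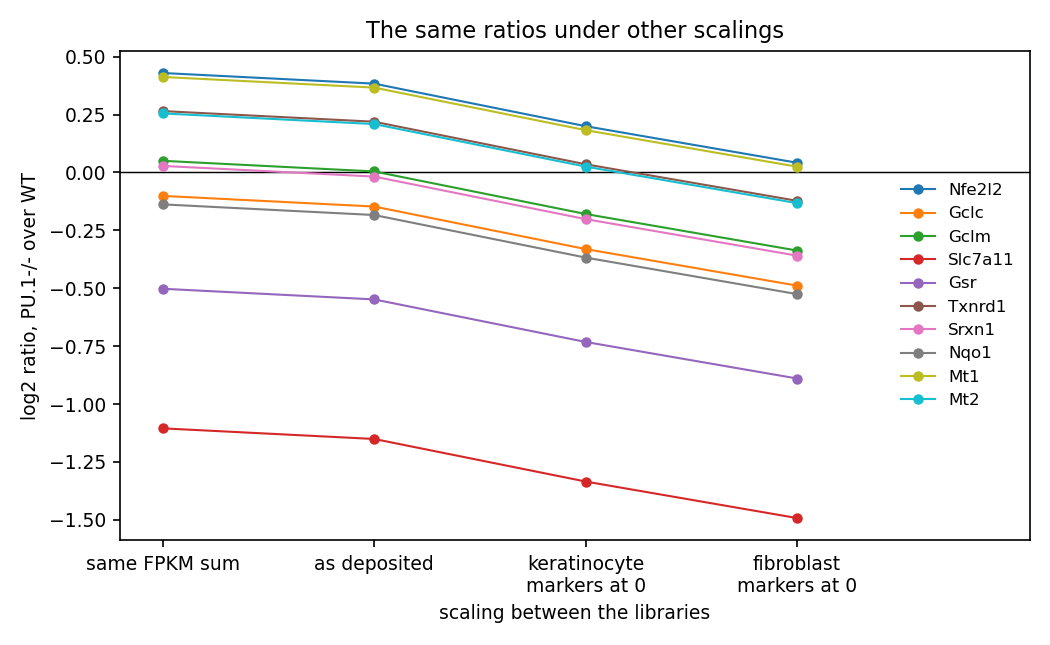
The log2 ratio of each of the 10 genes (PU.1-/- over WT) is plotted under 4 scalings of the libraries, with lines that join the values of a gene. The lines are parallel, Slc7a11 and Gsr lie below 0 in each of these scalings, and Nfe2l2 and Mt1 lie above 0 in each.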

How the data were processed

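Skin wounds of WT and PU.1-/- pups were sequenced as 1 library per genotype. The authors prepared stranded mRNA libraries, read single ends of 75 bases, mapped them to mm10 and deposited FPKM values from Cuffnorm 2.2.1; the submitters' processing notes also list TopHat2 2.1.1, Bowtie2 2.2.8, SAMtools 0.1.18 and Cuffdiff 2.2.1. The annotation and the strand setting of the counting are, for these files, not given in the sources used.

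Values below 0.1 FPKM were raised to 0.1 before ratios were taken, and background shares were counted over 12958 genes with a mean of at least 1 FPKM. Effective depth was the main peak of the value of 1 read among genes below 1 FPKM with a single RefSeq-linked GENCODE transcript of at least 800 nt, less 200 nt for the fragment. Values of 0.5 to 5.5 estimated reads lay within 0.1 of a whole number for 78.3% of 1306 genes in WT and 78.7% of 1272 in PU.1-/-. Genes of equal reads had a WT over PU.1-/- FPKM ratio of 1.15, and the depth estimates differ by the same factor. Reads were computed on the shortest linked transcript, which leans to wide intervals. PCR duplicates were not marked by molecular identifiers. No test was possible with 1 library a group. The 10 genes, the gene lists and the alternatives were chosen with earlier results of these data known. Named were the 10 genes, Spi1, list genes that differ 1.5-fold, the 2 most abundant genes of each list, and, picked after their values were seen, Keap1, Bach1, Gpx2, Asns, Trib3, Phgdh, Atf3, Ddit3, Mt3, Mtf1, Slc30a1, Nr3c1, Dusp1, Fkbp5, Per1, Tsc22d3, Sqstm1, Osgin1, Fabp4, Plin1, Cidec, Xist and Ddx3y. Of the cell type lists, genes are named for myeloid cells and adipocytes, and the others are given through sums. Promoters and positions are from RefSeq on GRCm38.p6. Functions were tested on simulated data. Scripts ran under Python 3.11.15 with scipy 1.17.1, numpy 2.4.6, pandas 2.3.3 and, for plots, matplotlib 3.10.9.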

Additional observations from a re-analysis of the deposited data

How the results depend on the processing

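Among the 10 genes, the count of those at least 2-fold lower was 1 as deposited and under all 4 rescalings, and 0 with 1 FPKM added. The count at least 1.5-fold lower was 2 when scaled to the keratinocyte markers and 2 when scaled to the fibroblast markers, since Gsr joined Slc7a11. These scalings lower every gene alike, and 11.9% and 20.2% of all 12958 genes were then at least 1.5-fold lower. No gene of the 10 was at least 1.5-fold higher under any alternative run. For the genes of the 12 lists, the number at least 1.5-fold lower was 7 as deposited. With the same FPKM sum it was 5 (4.55% of 110), where 6.63% of all genes were. It was 20 (18.2%) with keratinocyte markers at 0 and 34 (30.9%) with fibroblast markers at 0. Both shares lie above the 11.9% and 20.2% of all genes under these scalings. The number at least 1.5-fold higher was 3 as deposited and 4 (3.64%) with the same FPKM sum. It was 2 (1.82%) with keratinocyte markers at 0 and 0 with fibroblast markers at 0. Of all genes, 5.03%, 5.89%, 2.82% and 1.8% were higher by as much, in that order. Of 60 recomputed ratios of single genes 40 stayed within the counting interval, and 4 of the 12 list medians changed sign under at least 1 alternative. The 40 include alternatives that could hardly move a ratio. Raising values below 1 FPKM to 1 touched none of the 10 genes, whose lowest level was 2.59 FPKM. Setting equal medians of genes of at least 10 FPKM shifted log2 ratios by 8.9e-04. Most ratios that moved did so with keratinocyte or fibroblast markers at 0. No paired analysis was possible because each genotype is 1 library, and for the same reason no library could be left out. Depth limits Nqo1 most, at about 88 and 89 reads.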

Other observations

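Glucocorticoids are among the known inducers of metallothionein genes, and genes that answer to them were described for that reason. Of the 10 genes on that list 3 were higher by 1.5-fold or more without PU.1 and 0 lower, with a median log2 ratio of 0.25, against 5.03% higher among all genes tested. Zbtb16, a zinc finger repressor, was at 7.56 FPKM in WT, against 14.2 FPKM in PU.1-/-, with a ratio of 1.87 (counting interval 1.69 to 2.09). Hsd11b1, which makes active glucocorticoid from its inactive form, was at 19.2 and 35.3 FPKM, a ratio of 1.84 (1.60 to 2.11). Klf9 was at 29.1 and 48.4 FPKM, a ratio of 1.66 (1.57 to 1.76). The receptor Nr3c1 was at 13.3 and 13.2 FPKM, and the most abundant genes of the list, Sgk1, at 94.4 and 92.5 FPKM, and Ddit4, at 85.7 and 103 FPKM, differed less. Dusp1 was lower, at 79.8 and 60.3 FPKM, a ratio of 0.756 (0.708 to 0.807). Fkbp5, Per1 and Tsc22d3 had ratios of 1.09, 1.17 and 1.22. On the whole list 7 genes lay above 0 and 3 below. With fibroblast markers at 0 the median was −0.09, and none of Zbtb16, Hsd11b1 and Klf9 reached 1.5-fold. A link between this list and the metallothionein levels was not tested.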
